A study of Mus musculus with 14 samples.

Results

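Tumor cells of medulloblastoma were compared with granule cell precursors across all genes on the array. The comparison takes 9 of the 14 arrays of the study, chosen by their titles: 5 of tumor cells and 4 of granule cell precursors (GCP). All mice were heterozygous for patched (the gene Ptch1) and were kept by breeding with 129X1/SvJ mice, so the controls carry the same allele as the tumor-bearing mice. GCP came from mice aged 7 days, and tumor cells came from mice aged 10 to 25 weeks that had signs of medulloblastoma. The remaining 5 arrays are of preneoplastic cells (pretumor) from mice aged 6 weeks, whose levels are set beside those of the other groups where this helps. Per the labels' protocols, papain and DNase freed the cells of cerebella or tumors, a Percoll step gradient enriched them, and the cells at its interface were flash frozen; no sort for a cell type was made. Tumor mice were also older than GCP mice, so stage and age cannot be told apart. Nothing in the labels ties the samples of a group to separate animals; the p-values then cover just the sample-to-sample spread here, possibly a technical one.

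Granule cell precursors form the outer layer of the young cerebellum, where Sonic hedgehog from Purkinje cells binds Patched, releases Smoothened and drives the precursors to divide through Gli factors, before they leave the cycle, migrate inward and become granule neurons. Mice with 1 working Ptch1 allele can develop medulloblastoma, a tumor of this lineage, when hedgehog signalling stays on after the layer has normally gone. A comparison with GCP is therefore meant to set tumor cells against dividing cells of the same lineage, and not against resting brain. The samples were not sorted, so they can also hold cells other than dividing precursors.

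The deposited values are intensities, given here as log2 levels after a floor at an intensity of 2.46. Of all values 70.5% lay under an intensity of 16 (a level of 4), in a narrow range called the low band here, where a difference may carry little signal. A difference is tumor minus GCP in log2 units ± its standard error (SE) from limma, a level of a group is a mean ± SD (n = 4 for GCP and 5 for tumor), and levels on single arrays are listed in the order GCP 1 to 4 and tumor 1 to 5. A gene was called at an adjusted p under 0.05 by limma with Benjamini-Hochberg adjustment, and only called genes are said to have risen or fallen. A fold is the ratio of the geometric means of the groups, taken from the mean log2 levels after the floor. Where 1 mean lay in the low band the fold is given against 16 as "at least", and where both did none is given. Median array intensities ran from 4.12 to 4.39, and 29.2% to 29.8% of probe sets reached 16. The GCP arrays formed pairs: the correlation was 0.9977 between GCP 1 and GCP 2 and 0.9975 between GCP 3 and GCP 4, against 0.9939 to 0.9956 across the pairs. Tumor arrays were less alike, with correlations from 0.9831 to 0.9956, the highest between tumor 4 and tumor 5. The 3' to 5' log2 ratio of the Gapdh control was 0.46 and 0.56 in GCP 1 and GCP 2, -0.018 in both GCP 3 and GCP 4, and 0.15 to 0.42 in tumor arrays. Because GCP may hold fewer than 4 independent samples, each group of genes below is also given with each GCP pair averaged to 1 sample.

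Tumor cells differed from GCP in 464 of the 8251 genes tested, or 5.62%, with 140 genes (1.7%) higher and 324 (3.93%) lower in tumor. Of the 3098 genes with a group mean of 16 or more, 10.4% were called, 113 higher (3.65%) and 210 lower (6.78%), and the groups did not overlap in 15.5% (6.23% higher and 9.23% lower). The values of the 2 groups did not overlap in 431 of the 464 called genes, against 9.53% of all genes (3.81% higher and 5.72% lower in tumor). Most changes were moderate: the median difference among called genes above the low band was 1.06 for rises and -1.01 for falls. Of these genes 17 rose and 48 fell by a difference of 2 log2 units or more, and where 1 mean lay in the low band the fold given below can be smaller. In 141 called genes both group means lay in the low band, so these calls rest on dim signals. Over probe sets, 571 of 12422 or 4.6% were called (175 or 1.41% higher, 396 or 3.19% lower), the groups did not overlap in 8.0% (3.28% higher, 4.73% lower), and 1911 probe sets had an unadjusted p under 0.05. With the GCP pairs averaged, 198 probe sets were called (40 higher, 158 lower), and without GCP 4, 338.

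**Figure D1:**
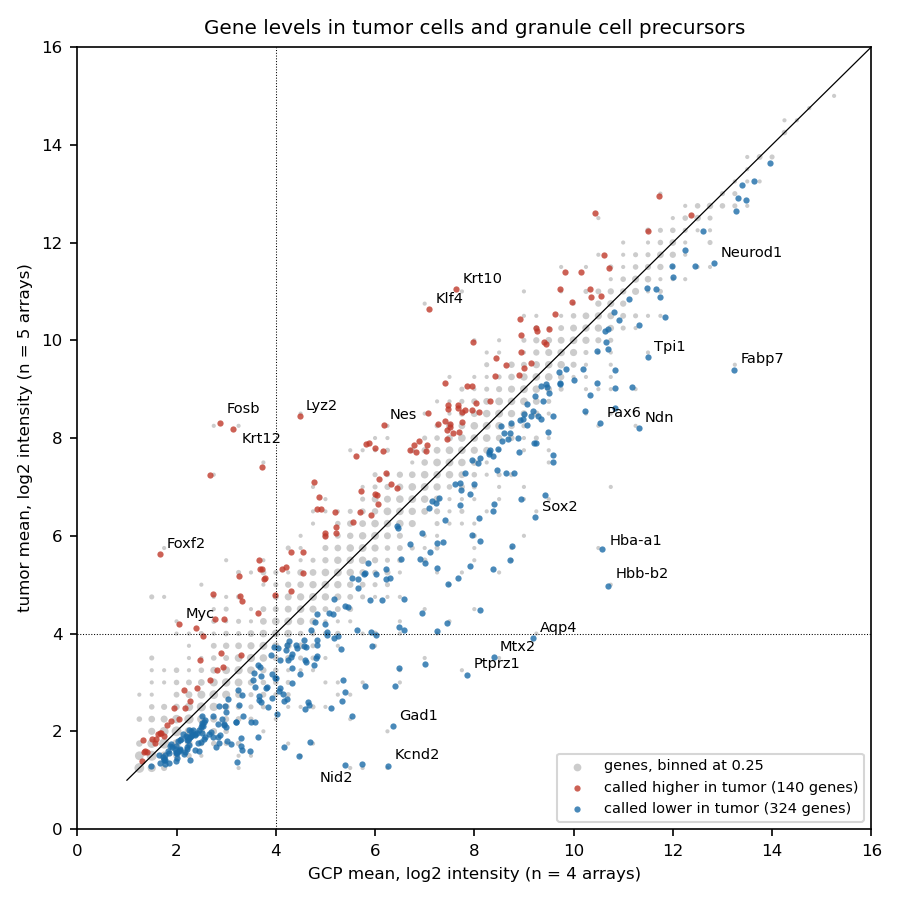
Mean level (log2 intensity) of genes in tumor cells (n = 5 arrays, vertical axis) against GCP (n = 4 arrays, horizontal axis). Grey points are all 8251 genes binned at 0.25 with size rising with the number of genes, red points are the 140 genes called higher in tumor and blue points the 324 called lower; the diagonal marks equal levels and the dotted lines the limit of the low band.

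None of the 13 measured hedgehog pathway genes was called between tumor cells and GCP. At an unadjusted p under 0.05 there were 4, 2 in each direction, and the count called was 1 without tumor 3 and 0 without any other array. Ptch1, the receptor that restrains the pathway and a target of it, was at 7.51, 7.28, 7.25 and 7.43 on the GCP arrays and 8.23, 7.93, 7.63, 8.26 and 6.91 on the tumor arrays with probe set 104030_at (adjusted p = 0.501). Tumor 5 lay below every GCP array and the other tumor arrays lay above. The other Ptch1 probe set, 104031_at, stayed near 2 on all of these arrays. The labels give all mice the same genotype, so these levels do not check it. Ccnd2, a D-type cyclin and the brightest member, was at 10.54 ± 0.55 in GCP and 10.18 ± 0.88 in tumor (difference -0.36 ± 0.45, adjusted p = 0.851). Gli1, a transcription factor that hedgehog signalling switches on, and Shh, the ligand, were in the low band on all of these arrays, so their probe sets say little on the pathway.

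Of 15 measured transcription factors that mark granule precursors 1 fell (6.67%, against 3.93% of all genes lower) and none rose. The groups did not overlap in 4 members, all lower in tumor, against 5.72% of all genes lower. An unadjusted p under 0.05 was found for 4, also all lower, and the median difference of the 10 members outside the low band was -0.21. The count of falls was 3 with median centring and 2 with quantile normalisation or with the 2 groups fitted alone. Zic1 was at 12.74 ± 0.11 in GCP and 12.64 ± 0.21 in tumor (adjusted p = 0.794). Atoh1, the factor that defines the precursors, lay in the low band on all 9 arrays, at 1.95 ± 0.10 and 2.01 ± 0.17, so its probe set says little of these cells. Pax6, a homeodomain factor of granule precursors and neurons (92271_at), was the member that fell. Its levels were 10.39, 10.38, 10.83 and 10.57 on the GCP arrays. On the tumor arrays they were 8.90, 8.14, 8.24, 8.11 and 8.17. All tumor arrays lay more than 1 log2 unit below all GCP arrays, and the mean fell 4.7-fold (difference -2.23 ± 0.33, adjusted p = 0.00214). Without any 1 of the 9 arrays, and with the GCP pairs averaged, Pax6 kept its call.

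Some genes that granule cells switch on as they mature were lower: 4 of 21 measured members fell, against 3.93% of all genes lower, and none rose. On this list 13 members were under 16 on all arrays, the called gene Cbln1 among them. The 7 members outside the low band had a median difference of -0.82, against -0.012 over all genes above it. Kcnd2, a potassium channel subunit of granule neurons (99339_r_at), was at 5.30, 5.90, 7.16 and 6.69 in GCP and at the floor of 1.30 on every tumor array. It fell at least 4.81-fold (adjusted p = 1.21e-05), and the pretumor mean was 1.76 ± 0.54. Cntn1, an adhesion protein of parallel fibres, went from 6.94 ± 0.55 to 4.41 ± 0.64, a fall of 5.77-fold in a comparison where tumor 5 lay in the low band (adjusted p = 0.00628). Neurod1, a factor that drives granule cell differentiation, was among the brightest genes of GCP. It went from 12.83 ± 0.09 to 11.58 ± 0.46, 2.37-fold lower (adjusted p = 0.0109), and tumor 2 was the lowest array at 10.78. Cbln1, a synaptic organiser secreted by granule cells, fell by 0.91 within the low band (adjusted p = 0.00947). When GCP pairs were averaged, the list count was 1: Kcnd2 kept its call and those of Cntn1, Neurod1 and Cbln1 ended (adjusted p = 0.0666 to 0.121).

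Neural stem and progenitor genes went both ways, with 4 of 19 measured members lower and 1 higher. Together these were 26.3% of the list, against 5.62% of all genes called. Fabp7, which binds fatty acids in radial and Bergmann glia (98967_at), was at 13.03, 13.52, 13.12 and 13.29 in GCP and 9.82, 10.59, 8.74, 9.40 and 8.46 in tumor. The groups lay far apart, and Fabp7 fell 14.3-fold (difference -3.84 ± 0.38, adjusted p = 0.000108). Sox2, a stem cell factor also present in Bergmann glia, went from 9.23 ± 0.15 to 6.39 ± 1.03, 7.19-fold lower (adjusted p = 0.00351). Id4, an inhibitor of basic helix-loop-helix factors, went from 5.17 ± 0.16 to 3.91 ± 0.11 (adjusted p = 0.000176). The remaining member that fell was Hes6, named after its values were seen, from 7.73 ± 0.28 to 6.94 ± 0.34 (adjusted p = 0.0328).

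Nes, which encodes nestin, an intermediate filament of neural progenitors (103549_at), was the stem cell gene that rose. It was at 6.40, 6.38, 6.06 and 5.85 on the GCP arrays. On the tumor arrays it was at 7.63, 9.14, 9.38, 7.70 and 7.46. Tumor 2 and tumor 3 stood above the other tumor arrays, and the rise was 4.26-fold (adjusted p = 0.015). The Nes call ended without GCP 4 (adjusted p = 0.0549), with GCP and tumor fitted alone (adjusted p = 0.0615) and with the GCP pairs averaged (adjusted p = 0.148). With the pairs averaged the Sox2 call ended too (adjusted p = 0.0564), which left 2 members lower and 0 higher.

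Among cell cycle genes 7.14% of the G1/S list and 6.06% of the mitosis list were called, against 5.62% of all genes. Of 42 measured G1/S and DNA replication genes 3 rose, against 1.7% of all genes higher, and none fell. Their median difference was 0.14, and at an unadjusted p under 0.05 there were 9 higher and 1 lower. Of 33 mitosis and spindle genes 1 rose and 1 fell, with a median of -0.0046, and at an unadjusted p under 0.05 there were 1 higher and 5 lower. Mki67, a marker of cycling cells, was at 10.37, 10.53, 10.40 and 10.73 in GCP and 11.32, 10.87, 9.89, 10.47 and 9.80 in tumor. The tumor arrays fell on both sides of the GCP range. Cdc6, which loads the replicative helicase (103821_at), rose 2.08-fold, from 6.90 ± 0.18 to 7.95 ± 0.19 (adjusted p = 0.00349). Mcm3 and Mcm4, subunits of that helicase, rose 1.66-fold and 1.71-fold (adjusted p = 0.0483 and 0.0163). Smc2, a condensin subunit, rose 1.91-fold (adjusted p = 0.0146).

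Stmn1, which destabilises microtubules and is on the mitosis list (97909_at), was the member that fell, by a small and even step. Its levels were 13.59, 13.62, 13.64 and 13.66 in GCP and 13.25, 13.24, 13.31, 13.36 and 13.15 in tumor, a fall of 1.29-fold (adjusted p = 0.000102). Of 19 cell cycle inhibitors and Rb family genes 1 rose (5.26%, against 1.7% of all genes higher) and none fell, with a median difference of 0.44. Gadd45b, a stress-induced growth arrest gene, rose 2.31-fold (adjusted p = 0.011). At an unadjusted p under 0.05 there were 9 of these inhibitors higher and 1 lower, and the groups did not overlap in 4 higher and 1 lower. The count of rises was 6 with array weights, 3 without tumor 1, 2 without tumor 2, and 0 with the 2 groups fitted alone or the GCP pairs averaged. The Mcm4 call ended without GCP 3 or GCP 4 (adjusted p = 0.0557 to 0.0586), which left 1 G1/S gene called in either case, and the Mcm3 call also without tumor 1, 2, 4 or 5 (adjusted p = 0.0799 to 0.155). After the GCP pairs were averaged, Cdc6 and Stmn1 kept their calls, and those of Mcm3, Mcm4, Smc2 and Gadd45b ended (adjusted p = 0.0827 to 0.148).

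Immediate early genes had the largest share of rises among the lists, which were chosen with earlier results of these data known. These genes encode factors such as Fos, Jun and Egr proteins that cells switch on within minutes of a growth signal, neuronal activity or the stress of tissue handling. Of 32 measured members 11 rose (34.4%) and none fell, against 1.7% of all genes higher, and the median difference was 0.77. Among the 22 members with a group mean of 16 or more 10 rose, against 3.65% of all such genes. The summed intensity of the list ran from 8786 to 14818 on the GCP arrays and from 22971 to 30828 on the tumor arrays. It was 16219 to 26013 on the pretumor arrays. The 11 genes were Atf3, Ccn1, Cebpd, Egr2, Fos, Fosb, Jun, Klf4, Mafg, Myc and Nr4a2. Once each GCP pair was averaged, 5 were called, with the 2 groups fitted alone 6, and with a floor at 16 5. Without GCP 2 or GCP 4 the count was 6, and without GCP 3 it was 7.

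Fosb, which pairs with Jun proteins in AP-1 (103990_at), showed the largest rise of any called gene above the low band. It lay in the low band on the GCP arrays, at 3.15, 3.01, 2.95 and 2.38. The tumor arrays read 6.43, 9.72, 6.35, 9.84 and 9.18. They fell into a lower pair, tumor 1 and tumor 3, and a higher set of 3, and all stood far above GCP. The rise was at least 19.7-fold (difference 5.43 ± 0.88, adjusted p = 0.00418), and the pretumor mean was 6.42 ± 1.39. Klf4, a zinc finger factor of stem cells and epithelia (99622_at), read 7.20, 6.51, 7.90 and 6.77 in GCP and 10.85, 11.21, 10.41, 10.24 and 10.47 in tumor. No value overlapped, and Klf4 rose 11.6-fold (adjusted p = 0.000226). Fos itself was bright in all samples, at 11.72 ± 0.38 in GCP and 12.96 ± 0.29 in tumor, and rose 2.36-fold (adjusted p = 0.00552). Jun rose 2.19-fold, with tumor 3 at 10.93 inside the GCP range (adjusted p = 0.0288).

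Myc, the growth-promoting factor (104712_at), was steady in the low band on the GCP arrays, at 2.08, 2.11, 2.01 and 1.99. It read 4.85, 3.58, 5.07, 3.78 and 3.72 on the tumor arrays. All tumor arrays were higher, yet 3 of the 5 still lay in the low band, and the rise of 2.15 ± 0.31 (adjusted p = 0.00171) corresponds to at least 1.15-fold higher. Mycn, the family member that hedgehog signalling induces in precursors, was brighter, at 6.74 ± 0.36 in GCP and 6.89 ± 1.04 in tumor, and was not called (adjusted p = 0.985). Cebpd, a factor of acute responses, rose 5.03-fold, with tumor 2 at 8.15 and tumor 3 at 8.82 above the 6.05 to 6.33 of the other tumor arrays (adjusted p = 0.0283). Rgs16, a regulator of G protein signalling, was the member called among 12 MAP kinase feedback genes (8.33%, against 1.7% of all genes higher). Rgs16 was at 3.66 ± 0.18 in GCP and 5.50 ± 1.03 in tumor (adjusted p = 0.0302). The Cebpd call ended without GCP 1, GCP 2, GCP 4 or tumor 2 (adjusted p = 0.0571 to 0.085), that of Jun without GCP 2, GCP 3, GCP 4, tumor 1, tumor 2 or tumor 4 (adjusted p = 0.0591 to 0.1) and that of Rgs16 without any 1 GCP array (adjusted p = 0.0561 to 0.0862). With the GCP pairs averaged Klf4, Fos and Myc kept their calls and those of Fosb, Jun, Cebpd and Rgs16 ended (adjusted p = 0.0616 to 0.225); with a floor at 16 Myc was not called (adjusted p = 0.931).

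The promoters of Fosb and Fos are shown because these genes, subunits of the same factor, rose together and their windows hold the core of the cyclic AMP response element, which CREB and ATF proteins bind. The core was searched as TGACG on both strands (reverse complement CGTCA) in RefSeq windows of build GRCm38.p6 that run from 250 bases before to 50 bases after the start. It stood in the windows of 18 of the 25 immediate early genes that had a window, of 8 of the 9 called members with a window and of 33.1% of the measured genes with a window. Capitals mark the matches.
Fosb (chr7:19309996-19310295, minus strand): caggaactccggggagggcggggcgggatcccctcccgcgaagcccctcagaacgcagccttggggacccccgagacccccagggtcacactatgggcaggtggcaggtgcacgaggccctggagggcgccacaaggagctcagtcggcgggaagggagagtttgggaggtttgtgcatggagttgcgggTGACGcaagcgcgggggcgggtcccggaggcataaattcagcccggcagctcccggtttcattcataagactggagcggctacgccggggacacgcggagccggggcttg
Fos (chr12:85473640-85473939, plus strand): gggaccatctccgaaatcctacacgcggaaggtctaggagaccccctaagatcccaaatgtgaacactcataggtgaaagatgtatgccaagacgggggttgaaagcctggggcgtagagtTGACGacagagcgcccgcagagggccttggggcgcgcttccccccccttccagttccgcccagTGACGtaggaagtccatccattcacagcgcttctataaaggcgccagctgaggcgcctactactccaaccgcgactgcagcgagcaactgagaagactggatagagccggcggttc
The Fosb window holds 1 match and the Fos window 2. A match describes these letters and shows no binding.

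Heat shock genes rose in part: 7 of 37 measured chaperones and cochaperones were higher and 1 lower. In all 21.6% of the list was called, against 5.62% of all genes. The genes that rose were Bag3, Hsph1, Dnajb1, Hspe1, Dnajb9, Hspd1 and Hspa9. Bag3, a cochaperone of Hsp70 that proteotoxic stress induces (161980_f_at), read 5.54, 5.92, 5.66 and 6.18 in GCP and 8.26, 8.33, 8.61, 7.17 and 6.99 in tumor. Every tumor array lay above every GCP array, and the rise was 4.14-fold (adjusted p = 0.00939); the pretumor mean, 8.99 ± 0.60, was higher than the tumor mean. Hsph1, an Hsp110 chaperone, rose 2.39-fold from 10.14 ± 0.16 to 11.40 ± 0.61 (adjusted p = 0.0199). Dnajb1, the Hsp40 partner of Hsp70, rose 2.04-fold (adjusted p = 0.00244). Hspd1, the mitochondrial chaperonin Hsp60, was bright in all samples and rose 1.66-fold from 11.49 ± 0.11 to 12.23 ± 0.17 (adjusted p = 0.00135).

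Hspa1a, an inducible Hsp70 gene named after its values were seen, was not called. It was at 10.79 ± 0.77 in GCP and 11.62 ± 0.44 in tumor (adjusted p = 0.209). GCP 4 was the lowest, and GCP 1 and GCP 2 lay within the tumor range. The cytosolic chaperonin subunits (Cct3 to Cct8) were not called, with differences from -0.07 to 0.26. The member that fell, Dnajb2, a J-protein of neurons, went from 4.80 ± 0.35 to 3.49 ± 0.62 (adjusted p = 0.0303). The Dnajb2 call ended without GCP 1, GCP 2, GCP 4, tumor 1 or tumor 4 (adjusted p = 0.0661 to 0.0944) and that of Hsph1 without GCP 3 or GCP 4 (adjusted p = 0.0515 to 0.0662), and without GCP 4 the list count was 4. When GCP pairs were averaged, the list count was 2; Hspd1 and Dnajb1 kept their calls and those of Bag3, Hsph1 and Dnajb2 ended (adjusted p = 0.097 to 0.193).

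Promoters of Hspd1 and Hsph1 are shown because both genes rose and each holds a triple heat shock element, the site that trimers of heat shock factor 1 bind. It was searched as the heat shock element of 3 alternating units on both strands, GAANNTTCNNGAA and its reverse complement TTCNNGAANNTTC. It stood in the windows of 5 of the 32 heat shock genes that had a window, 3 of the 7 called members with a window (Hspd1, Hspe1 and Hsph1), 0.563% of the measured genes and 0.662% of all genes with a window. Capitals mark the matches.
Hspd1 (chr1:55087883-55088182, minus strand): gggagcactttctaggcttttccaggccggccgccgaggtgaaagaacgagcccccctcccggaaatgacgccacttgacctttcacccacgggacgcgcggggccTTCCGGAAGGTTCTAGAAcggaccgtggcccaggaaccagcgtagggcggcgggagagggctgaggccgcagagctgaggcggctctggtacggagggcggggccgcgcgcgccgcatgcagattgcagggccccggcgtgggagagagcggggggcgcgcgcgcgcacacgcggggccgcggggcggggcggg
Hsph1 (chr5:149636266-149636565, minus strand): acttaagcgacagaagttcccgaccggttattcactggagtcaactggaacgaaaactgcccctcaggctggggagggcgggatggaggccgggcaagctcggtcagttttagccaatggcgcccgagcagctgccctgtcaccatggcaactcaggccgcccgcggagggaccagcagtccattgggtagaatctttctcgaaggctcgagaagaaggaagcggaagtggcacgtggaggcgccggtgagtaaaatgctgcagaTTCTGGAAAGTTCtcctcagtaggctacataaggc
Hspd1 and Hsph1 have 2 windows each, and the window shown was taken from those with a match. The 2 matches of the Hspd1 window overlap. Hspd1 and Hspe1, which encodes the partner protein Hsp10, lie head to head and share this stretch, so their windows are not separate cases. Dnajb1 rose without a match in its window.

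Genes at several steps of cholesterol synthesis were lower in tumor cells. In this pathway Hmgcs1 makes the precursor of mevalonate, Mvd, Idi1 and Fdps build isoprenoid units, Fdft1 joins them into squalene, and Msmo1 and Nsdhl trim the sterol ring. Of 18 measured genes of synthesis and uptake 7 fell (38.9%) and none rose, against 3.93% of all genes lower; these were the 7 genes just named. The median difference over the list was -0.82 and over the 13 members above the low band -0.89. The summed intensity of the list was 4050 to 4589 on the GCP arrays, 1819 to 2389 on the pretumor arrays and 1621 to 2154 on the tumor arrays, with no overlap of GCP with either group.

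Hmgcs1 (94325_at) read 10.75, 11.01, 10.79 and 10.77 in GCP and 8.99, 8.92, 9.61, 8.67 and 8.97 in tumor. It fell 3.48-fold (difference -1.80 ± 0.20, adjusted p = 0.000326). Tumor 3 was the highest tumor array and still lay more than 1 log2 unit under the lowest GCP array. Msmo1 (160388_at) read 7.82, 7.90, 8.07 and 8.70 in GCP and 5.64, 5.60, 6.48, 5.71 and 6.08 in tumor, the largest fall of the list at 4.66-fold (adjusted p = 0.000116). Nsdhl (93868_at) read 8.28, 8.34, 8.53 and 8.45 in GCP and 6.54, 6.30, 7.02, 6.58 and 6.83 in tumor, a fall of 3.35-fold (adjusted p = 8.45e-05). For both genes every tumor array lay more than 1 log2 unit under every GCP array. Idi1 fell 2.56-fold, from 9.48 ± 0.29 to 8.12 ± 0.45 (adjusted p = 0.00659). Srebf1, a member of the factor family that switches on lipid genes and named after its values were seen, was at 6.32 ± 0.45 in GCP and 7.68 ± 1.42 in tumor and was not called (adjusted p = 0.333). After the GCP pairs were averaged, 5 members were called; Hmgcs1, Msmo1 and Nsdhl kept their calls and that of Idi1 ended (adjusted p = 0.0616). Without any 1 array the count was 6 to 8, and with array weights 12.

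The promoters of 3 of these genes are shown because they fell together and share the CCAAT box, which the factor NF-Y binds and which often stands beside sterol elements in this pathway. The CCAAT box was searched on both strands (CCAAT and ATTGG) and stood in the windows of all 15 list members that had a window, against 42.5% of the measured genes and 41.1% of all genes with a window. A sterol element searched as TCACNCCAC (reverse complement GTGGNGTGA) stood in 1 of the 15, Hmgcs1, and in 1.44% of all windows. Capitals mark the matches.
Hmgcs1 (chr13:119690101-119690400, plus strand): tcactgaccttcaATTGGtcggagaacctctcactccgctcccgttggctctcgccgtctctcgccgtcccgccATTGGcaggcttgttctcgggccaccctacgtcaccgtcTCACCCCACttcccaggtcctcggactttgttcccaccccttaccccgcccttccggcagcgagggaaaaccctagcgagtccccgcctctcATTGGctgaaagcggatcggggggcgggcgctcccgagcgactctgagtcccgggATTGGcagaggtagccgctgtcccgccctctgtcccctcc
Msmo1 (chr8:64733529-64733828, minus strand): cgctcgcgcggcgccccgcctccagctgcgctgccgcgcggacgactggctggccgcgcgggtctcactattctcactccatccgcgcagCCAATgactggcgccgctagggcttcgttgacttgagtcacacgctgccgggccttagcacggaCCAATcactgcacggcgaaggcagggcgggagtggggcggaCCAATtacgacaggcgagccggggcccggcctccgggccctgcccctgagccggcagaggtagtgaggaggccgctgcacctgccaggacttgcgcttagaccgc
Nsdhl (chrX:72918271-72918570, plus strand): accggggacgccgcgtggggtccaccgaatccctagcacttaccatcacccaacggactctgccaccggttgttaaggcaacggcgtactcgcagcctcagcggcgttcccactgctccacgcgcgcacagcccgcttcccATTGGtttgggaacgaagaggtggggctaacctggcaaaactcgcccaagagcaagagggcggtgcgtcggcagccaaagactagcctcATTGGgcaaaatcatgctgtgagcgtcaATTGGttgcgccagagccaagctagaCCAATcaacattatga
The Hmgcs1 window holds 4 CCAAT boxes and the sterol element, the Msmo1 window 3 boxes and the Nsdhl window 4. All 15 members hold the box whether or not they were called, so it does not part the genes that fell from those that were not called.

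**Figure D2:**
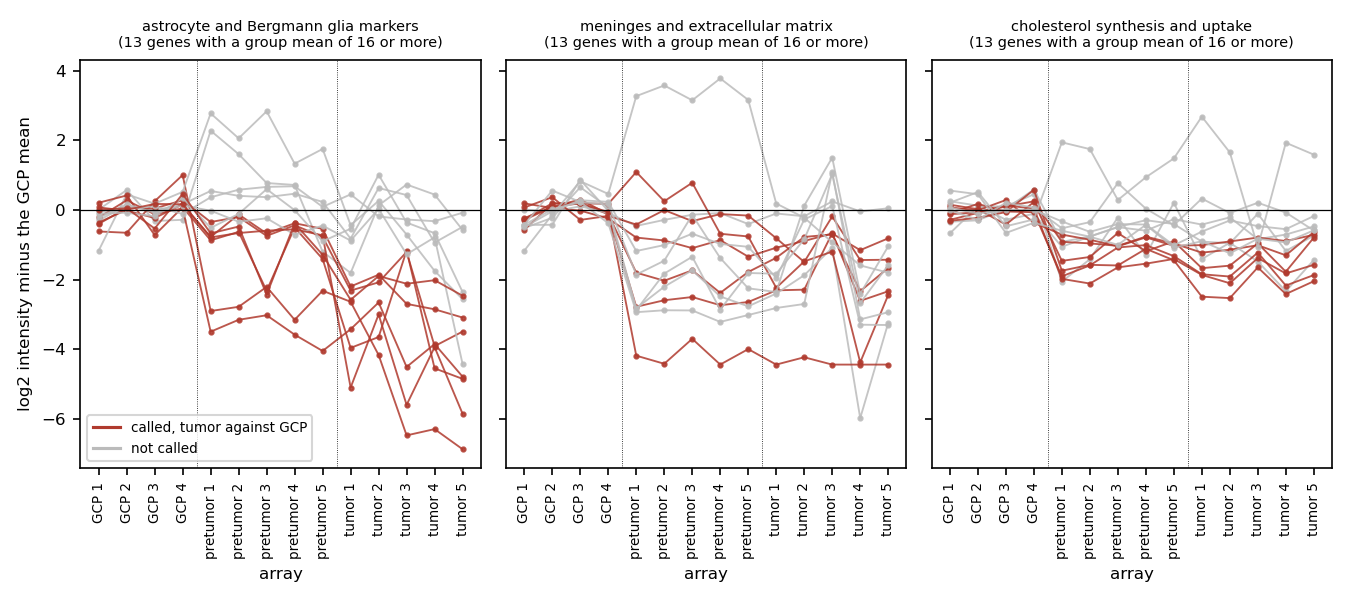
Level on each of the 14 arrays minus the GCP mean (log2 units, vertical axis) for the 13 genes with a group mean of 16 or more in each of 3 lists: astrocyte and Bergmann glia markers, meninges and extracellular matrix, and cholesterol synthesis and uptake. Red lines are genes called lower in tumor against GCP and grey lines are not called; the called cholesterol genes sit below 0 on all pretumor and tumor arrays, while matrix genes are widely spread over the tumor arrays.

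Other metabolic genes moved less. Called shares were 14.3% for fatty acid synthesis, 20.8% for glycolysis and hypoxia and 7.14% for oxidative phosphorylation, against 5.62% of all genes. Of 14 fatty acid synthesis genes 2 fell: Scd2, the stearoyl-CoA desaturase of brain, 1.8-fold from 11.74 ± 0.38 to 10.89 ± 0.22 (adjusted p = 0.0127), and Scd1, within the low band (adjusted p = 0.00358). Of 24 glycolysis and hypoxia genes 4 fell and 1 rose. Tpi1, triose phosphate isomerase (99566_at), read 11.50, 11.43, 11.57 and 11.51 in GCP and 9.21, 9.37, 9.94, 9.17 and 10.57 in tumor. The GCP arrays were close to each other, tumor 5 was the highest of the tumor arrays, and the fall was 3.6-fold (adjusted p = 0.000795). Slc16a1, a lactate transporter, fell from 4.02 ± 0.84, at the limit of the low band, to 2.36 ± 0.23, inside it (adjusted p = 0.012, and 0.0656 with the 2 groups fitted alone and 0.896 with a floor at 16). P4ha1, a collagen prolyl hydroxylase induced by low oxygen, was the member that rose, at least 2.21-fold (adjusted p = 0.0211); omitting GCP 3, GCP 4 or tumor 1 ended this call (adjusted p = 0.0511 to 0.0714). Of 42 oxidative phosphorylation genes 3 fell, Sdhc, Sdhd and Cox6a1, by 0.69, 0.34 and 0.38, and none rose. The call of Sdhc ended without GCP 2, GCP 3 or GCP 4, that of Cox6a1 also without tumor 1 or tumor 4, and that of Sdhd without any of these or tumor 2, 3 or 5 (adjusted p = 0.053 to 0.156). Once each GCP pair was averaged, no oxidative phosphorylation gene was called, Tpi1 kept its call, and those of Scd2 and P4ha1 ended (adjusted p = 0.0564 and 0.123).

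Of ribosomal protein genes 3.23% were called and of chromatin genes 12.1%, against 5.62% of all genes. Of 31 ribosomal protein genes 1 rose, Rpl13a (2-fold, adjusted p = 0.00437), and of 35 splicing factors none was called, with 5 at an unadjusted p under 0.05. Of 33 chromatin genes 1 rose and 3 fell. Bmi1, a Polycomb protein that precursors need in order to divide, rose 1.89-fold from 9.63 ± 0.22 to 10.54 ± 0.37 (adjusted p = 0.0374). Hmgb3 and Hmgn1, nucleosome-binding proteins, and Smarcb1, a subunit of the SWI/SNF remodeller, fell by 0.41, 0.21 and 0.36 (adjusted p = 0.0182, 0.0353 and 0.0453). The Hmgb3 call ended without GCP 1 (adjusted p = 0.0571), that of Bmi1 without any 1 GCP array or tumor 1, 4 or 5 (adjusted p = 0.0524 to 0.114), that of Hmgn1 without these or tumor 2 (adjusted p = 0.0534 to 0.105), and that of Smarcb1 without any 1 array (adjusted p = 0.053 to 0.137). With the GCP pairs averaged Rpl13a was the only gene of these 3 lists that was called.

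**Figure D3:**
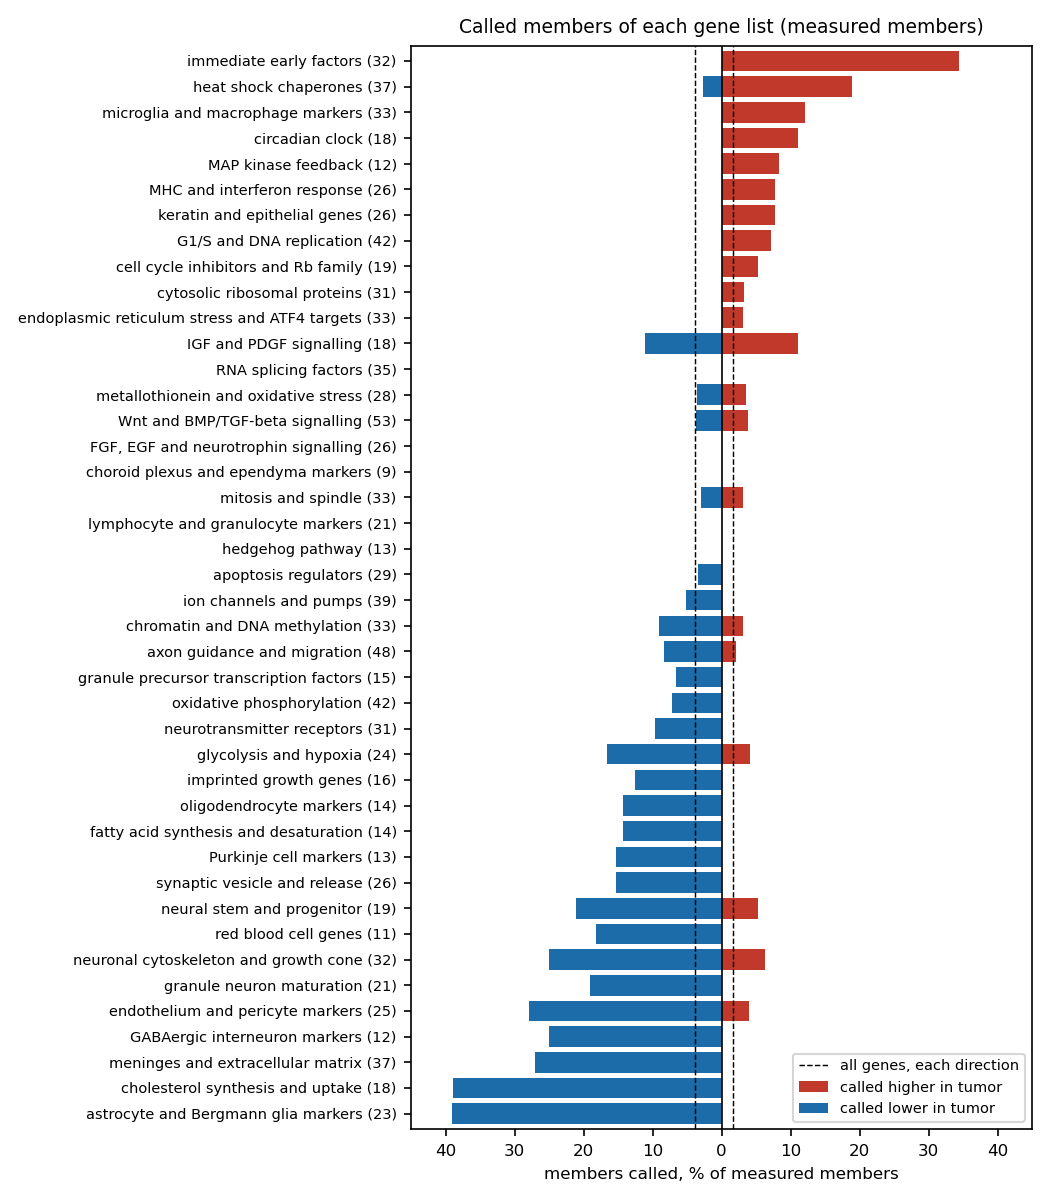
Share of measured members called higher (red, to the right) or lower (blue, to the left) in tumor against GCP for 42 gene lists, with the number of measured members in brackets (horizontal axis: % of measured members). Dashed lines mark the shares over all 8251 genes, 1.7% higher and 3.93% lower; immediate early factors reach 34.4% higher, and cholesterol and astrocyte genes 38.9% and 39.1% lower.

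Imprinted growth genes gave 2 falls of 16 measured members (12.5%, against 3.93% of all genes lower). Necdin (Ndn, 101059_at), a growth suppressor of neurons expressed from the paternal allele, read 11.06, 11.14, 11.64 and 11.43 in GCP. It read 8.09, 7.65, 9.28, 7.71 and 8.28 in tumor. Tumor 3 stood above the other tumor arrays and below all GCP arrays, and the fall was 8.65-fold (adjusted p = 0.000143). Plagl1 (Zac1), a zinc finger growth suppressor, went from 4.47 ± 0.54 to 1.50 ± 0.32, with tumor 4 and tumor 5 at the floor, a fall of at least 1.38-fold (adjusted p = 6.16e-05). When GCP pairs were averaged, both kept their calls; with a floor at 16 that of Plagl1 ended (adjusted p = 0.0689).

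Growth factor genes were mostly dim. The called share was 22.2% for IGF and PDGF genes and 7.55% for Wnt and BMP/TGF-beta genes, against 5.62% of all genes. Of 26 FGF, EGF and neurotrophin genes 22 lay under 16 on all arrays and none was called, with 4 at an unadjusted p under 0.05; Kitl, the ligand of Kit, read 8.44, 8.00, 7.39, 6.84 and 4.82 on the tumor arrays, where tumor 5 stood below all GCP arrays (difference 1.04 ± 0.59, adjusted p = 0.471, and 0.0248 without tumor 5). Of 18 IGF and PDGF genes 2 rose and 2 fell. Pdgfa, a platelet-derived growth factor chain that acts on glial progenitors, rose 3.28-fold from 4.83 ± 0.23 to 6.55 ± 0.84 (adjusted p = 0.0211). Pik3r1, a PI3 kinase regulatory subunit, rose at least 2.15-fold (adjusted p = 0.0241). Igfbp2, an IGF binding protein of meninges and glia, fell 5.06-fold, with tumor 4 in the low band (adjusted p = 0.0482), and Igfbp4 fell within the low band (adjusted p = 0.00263). Of 53 Wnt and BMP/TGF-beta genes 2 rose and 2 fell: Tgfb2, a TGF-beta ligand, rose 2.08-fold (adjusted p = 0.0236), Wnt4 and Bmp6 changed within the low band, and Gdf10, a BMP family ligand of Bergmann glia, is described with the glial genes. The calls of Pdgfa (without GCP 1, 2 or 4), Pik3r1 (without GCP 2, 3 or 4 or tumor 1), Igfbp2 (without any 1 GCP array or tumor 1, 4 or 5), Tgfb2 (without GCP 2, 3 or 4 or tumor 1 or 4), Wnt4 (without any 1 GCP array or tumor 1 or 2) and Bmp6 (without GCP 2, 3 or 4 or tumor 1, 2 or 3) ended (adjusted p = 0.0503 to 0.133). After the GCP pairs were averaged, the same 6 calls ended (adjusted p = 0.155 to 0.293), and Igfbp4 kept its call.

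Genes of neurites and the synapse were lower more often than higher. Of 32 cytoskeleton and growth cone genes 8 fell and 2 rose, with a median difference of -0.34. These calls covered 31.25% of the list, against 5.62% of all genes. Stmn2, a microtubule regulator of growth cones, went from 11.83 ± 0.10 to 10.48 ± 0.70, 2.55-fold lower (adjusted p = 0.022), with tumor 2 lowest at 9.26. Tubb2a, a neuronal beta tubulin, fell 1.9-fold (adjusted p = 0.022), and Nefl, the light neurofilament chain, fell within the low band (adjusted p = 9.7e-05). Tmsb4x, an actin-binding thymosin, fell 1.54-fold from 13.27 ± 0.16 to 12.65 ± 0.07 (adjusted p = 0.00115). Dpysl4, a collapsin response mediator, went the other way and rose 2.46-fold (adjusted p = 0.012), as did Crmp1 of the same family, named after its values were seen, from 8.93 ± 0.23 to 9.76 ± 0.27 (adjusted p = 0.00673). The Stmn2 call ended without any 1 GCP array (adjusted p = 0.0537 to 0.0714) and that of Tubb2a without GCP 3, GCP 4, tumor 1 or tumor 4 (adjusted p = 0.0527 to 0.0744); without GCP 3 or GCP 4 the list count lower was 4. Once each GCP pair was averaged, it was 3 lower and 0 higher, with Tmsb4x, Nefl and Stmn1 kept; with a floor at 16 the Nefl call ended (adjusted p = 1).

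Of 48 axon guidance and migration genes 4 fell and 1 rose, the semaphorin Sema3e (difference 0.51 ± 0.09, adjusted p = 0.00497). Calls made up 10.4% of the list, against 5.62% of all genes. Unc5c, a netrin receptor that keeps granule cells from straying (103742_at), read 5.56, 5.59, 5.22 and 5.77 in GCP and 2.57, 1.95, 2.29, 2.49 and 2.33 in tumor. All GCP arrays lay above the low band and all tumor arrays inside it, and the fall was at least 2.9-fold (adjusted p = 1.1e-07). Ptn, pleiotrophin, fell 3.84-fold from 7.95 ± 0.29 to 6.01 ± 0.67 (adjusted p = 0.00472). Ptprz1, the phosphatase receptor that binds pleiotrophin, fell as well and is given with the glial genes. Pafah1b1 (Lis1), a dynein regulator needed for migration, fell by 0.55 (adjusted p = 0.0322); omitting any 1 array but tumor 3 ended this call (adjusted p = 0.0563 to 0.11). With the GCP pairs averaged Unc5c and Ptprz1 were called and Ptn was not (adjusted p = 0.0565).

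Of 31 neurotransmitter receptor genes 3 fell and none rose, Gria1, Gabrb1 and Gabra2. Shares called were 9.68% for this list, 15.4% for synaptic vesicle genes and 5.13% for ion channels and pumps, against 5.62% of all genes. Gria1, an AMPA receptor subunit abundant in Bergmann glia, fell 3.7-fold from 5.91 ± 0.48 to 4.03 ± 0.98 with 3 tumor arrays in the low band (adjusted p = 0.0308), and Gabrb1, a GABA-A receptor subunit, went from 4.50 ± 0.16 to 3.17 ± 0.50 (adjusted p = 0.00524). Of 26 synaptic vesicle genes 4 fell and none rose: Vamp2 and Snap91, of vesicle fusion and retrieval, fell 1.77-fold and 2.01-fold (adjusted p = 0.0241 and 0.0303), Homer2 fell at least 1.48-fold (adjusted p = 0.0135), and Syt1 fell within the low band (adjusted p = 0.0483). Of 39 ion channel and pump genes 2 fell, Kcnd2 and Slc8a1. Slc8a1, a sodium-calcium exchanger, read 5.75, 5.75, 5.78 and 5.80 in GCP and 5.37, 5.26, 5.38, 5.07 and 5.01 in tumor (adjusted p = 0.00698), while the pretumor mean was lower than either, at 4.15 ± 0.18. The calls of Gria1 (without GCP 1, 2 or 4 or tumor 1 or 4), Vamp2 (without GCP 2, 3 or 4 or tumor 1, 4 or 5), Snap91 (without GCP 2, 3 or 4 or tumor 2 or 4) and Syt1 (without GCP 1, 2 or 4 or tumor 1, 2, 4 or 5) ended (adjusted p = 0.0519 to 0.146), and without any 1 of GCP 2, 3 and 4 or tumor 1, 2, 4 and 5 the synaptic count was 1 or 2. When GCP pairs were averaged, no synaptic gene was called, Gabra2 and Kcnd2 kept their calls, and those of Gria1, Gabrb1 and Slc8a1 ended (adjusted p = 0.0676 to 0.199).

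**Figure D4:**
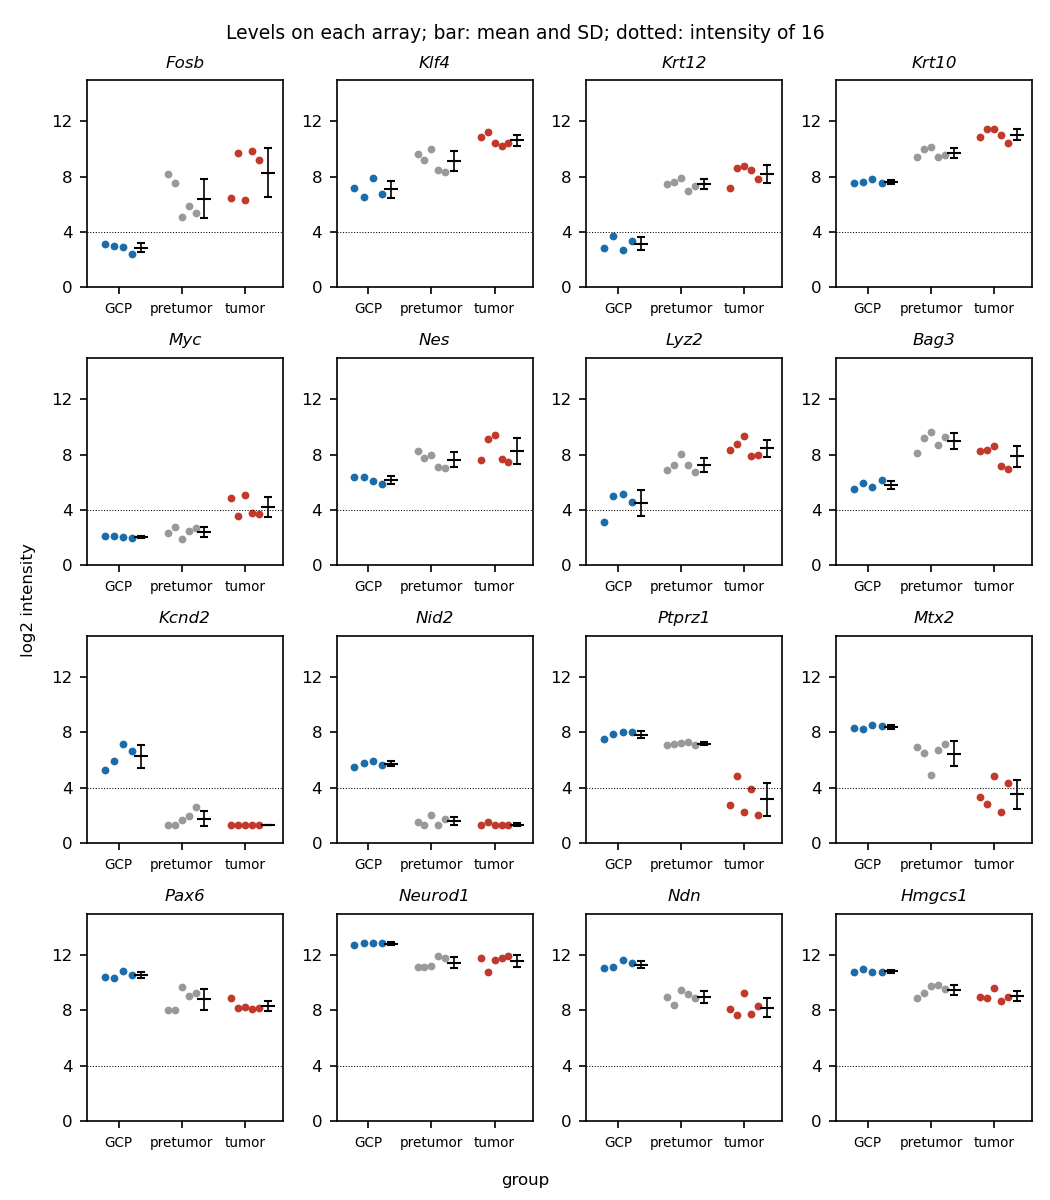
Level (log2 intensity, vertical axis) of 16 named genes on each array of GCP (blue, n = 4), pretumor (grey, n = 5) and tumor (red, n = 5); the black bar is the group mean with its SD and the dotted line the limit of the low band. Fosb, Krt12, Krt10 and Klf4 stand higher on all tumor arrays than on all GCP arrays, and Kcnd2, Nid2, Ptprz1 and Mtx2 lower.

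Markers of astrocytes and Bergmann glia, cells that an unsorted suspension can hold, were lower in tumor samples. Of 23 measured members 9 fell (39.1%) and none rose, against 3.93% of all genes lower. The 13 members outside the low band had a median difference of -2.21. The summed intensity of the list was 14964 to 19857 on the GCP arrays, 5774 to 11236 on the pretumor arrays and 3212 to 7395 on the tumor arrays. Fabp7, a bright member that is also on the stem and progenitor list, weighs heavily in this sum. Its level was 13.24 ± 0.22 in GCP and 9.40 ± 0.85 in tumor. In a bulk sample fewer cells of a type and less RNA of it per cell cannot be told apart, here and for the cell types that follow. Fabp7, Hopx and Gdf10, found in glia as well as progenitors, are themselves members of this list. Sox2 and Id4, also found in both, are not on it and fell too. The part of glia in the falls of these genes was not tested.

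Aqp4, the water channel of astrocyte endfeet (102704_at), read 8.58, 8.54, 9.45 and 10.20 in GCP. It read 6.56, 5.03, 2.72, 2.91 and 2.33 in tumor. Tumor 1 and tumor 2 kept a level above the low band and the other 3 did not, and the fall was at least 36.5-fold (adjusted p = 0.00206). Ptprz1, a receptor phosphatase of glia and progenitors (92379_f_at), read 7.50, 7.86, 8.03 and 8.02 in GCP and 2.76, 4.86, 2.26, 3.92 and 2.01 in tumor. The pretumor arrays stayed near GCP, at 7.19 ± 0.10, and the fall in tumor was at least 14.4-fold against GCP (adjusted p = 0.000143). Gdf10, a ligand of Bergmann glia, fell 12.4-fold, with 2 tumor arrays in the low band and tumor 3 at 6.95 (adjusted p = 0.00808). The other called members were Gja1, Hopx, Sparcl1, Tnc and Aldoc, of which Tnc and Aldoc had both group means in the low band. The Aldoc call ended without GCP 1, 2 or 4 or tumor 1, 2, 4 or 5 (adjusted p = 0.0572 to 0.107) and with the GCP pairs averaged (adjusted p = 0.202). Gfap, the defining filament of astrocytes, was in the low band on all GCP arrays and reached 4.22 on tumor 2 alone, and Slc1a2, a glutamate transporter, was under 16 on all arrays. Apoe, named after its values were seen, was at 9.77 ± 0.41 and 9.56 ± 1.01 and was not called (adjusted p = 0.99). After the GCP pairs were averaged, 4 members were called; Aqp4, Ptprz1 and Fabp7 were among them and Gdf10 was not (adjusted p = 0.0907).

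Oligodendrocyte markers gave 2 falls of 14 members (14.3%, against 3.93% of all genes lower). Mbp, myelin basic protein (96311_at), read 6.40, 7.17, 7.07 and 7.01 in GCP and 5.73, 5.71, 5.76, 5.51 and 4.87 in tumor, a fall of 2.63-fold (adjusted p = 0.00607). Tumor 5 was the lowest array. Nkx2-2, a factor of oligodendrocyte precursors, fell within the low band (adjusted p = 0.00586), and Mag, Mobp, Cnp, Ugt8a and Sox10 were under 16 on all arrays. Summed intensity of the list overlapped, 1774 to 2044 in GCP and 1526 to 2778 in tumor. Once each GCP pair was averaged, both calls held.

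Vessel and matrix genes were lower. Of 25 endothelial and pericyte markers 7 fell and 1 rose, and of 37 meninges and matrix genes 10 fell and none rose. The shares called, 32.0% and 27.0%, stand against 5.62% of all genes. Cldn5, the tight junction protein of brain vessels (104516_at), read 5.82, 5.93, 6.03 and 5.41 in GCP and 3.38, 3.06, 3.84, 2.17 and 2.18 in tumor. All GCP arrays lay above and all tumor arrays within the low band, and the fall was at least 3.48-fold (adjusted p = 0.000454). Cdh5 and Tie1, defining endothelial genes, were near or in the low band in GCP and fell further (adjusted p = 0.000602 and 0.00116); Pecam1 and Vwf were under 16 on all arrays, where Vwf still fell by 0.39 (adjusted p = 0.0276). Vegfc, a lymphatic and vascular growth factor (94712_at), fell at least 5.31-fold (adjusted p = 7.9e-05). Summed endothelial intensity ran from 281 to 351 in GCP and from 199 to 283 in tumor.

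Nid2, a basement membrane protein (93563_s_at), had the smallest p of the named genes. It read 5.50, 5.82, 5.93 and 5.67 in GCP and 1.30, 1.51, 1.30, 1.30 and 1.30 in tumor. The tumor arrays sat at the floor apart from tumor 2 just above it, the pretumor mean was 1.59 ± 0.31, and the fall was at least 3.32-fold (adjusted p = 1.26e-08). Col3a1, a fibrillar collagen of meninges, fell at least 1.56-fold, with tumor 3 at 3.98 well above the other tumor arrays (adjusted p = 0.00345). Nid1 fell within the low band (adjusted p = 0.031). Tumor 3 was the highest tumor array for summed matrix intensity, which ran from 2827 to 4722 in GCP and 589 to 4403 in tumor. Without tumor 3 the matrix count was 17, without GCP 2 or GCP 4 it was 5, without tumor 5 it was 6, and with the GCP pairs averaged it was 5. The endothelial count of falls was 6 with the pairs averaged, 13 with array weights and 1 with a floor at 16, and the matrix count 4 with that floor. The Nid1 call ended without any 1 array but GCP 1 and tumor 3 (adjusted p = 0.0554 to 0.0991); without any 1 array and with the pairs averaged, Nid2, Col3a1, Cldn5, Cdh5, Tie1 and Vegfc kept theirs. With the floor at 16 the calls of Nid1 and Tie1 ended (adjusted p = 1 for both), and Cdh5 had no value.

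Foxf2, a forkhead factor of brain pericytes (99846_at), ran against its list. It read 1.55, 1.95, 1.40 and 1.79 in GCP and 5.79, 4.78, 5.73, 6.27 and 5.57 in tumor. Every tumor array stood above the low band, and the rise was at least 3.09-fold (adjusted p = 1.28e-05), with the pretumor mean at 4.40 ± 0.44. Pdgfrb and Rgs5, defining pericyte genes, were under 16 on all arrays.

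Myeloid markers were higher in tumor samples for a few genes. Of 33 microglia and macrophage markers 4 rose (12.1%, against 1.7% of all genes higher) and none fell. Summed intensity ran from 650 to 1051 in GCP and from 1109 to 2977 in tumor. Lyz2, lysozyme of macrophages and neutrophils (100611_at), read 3.14, 5.03, 5.18 and 4.58 in GCP. It read 8.31, 8.78, 9.36, 7.89 and 7.94 in tumor. GCP 1 lay in the low band, all tumor arrays were higher than all GCP arrays, and the rise was 15.7-fold (adjusted p = 0.000301). Ctss, a lysosomal protease of microglia, rose 3.31-fold from 7.40 ± 0.75 to 9.13 ± 0.83 (adjusted p = 0.0386). H2-Aa and H2-Eb1, MHC class II chains, rose by 0.30 and 0.32 within the low band (adjusted p = 0.049 and 0.0333). They were also the 2 called genes of the 26 of the MHC and interferon list (7.69%, against 1.7% of all genes higher). Csf1r, the receptor that microglia depend on and named after its values were seen, was at 4.13 ± 0.40 and 4.15 ± 0.36 (adjusted p = 1); Aif1, Cx3cr1 and Itgam were under 16 on all arrays. The Ctss call ended without GCP 1, 3 or 4 or tumor 1, 2 or 3 (adjusted p = 0.0579 to 0.103) and the MHC calls without any 1 GCP array or tumor 1, 2 or 4 (adjusted p = 0.053 to 0.146); the microglia count was 1 or 2 without any 1 GCP array or tumor 1, 2 or 4. With the GCP pairs averaged Lyz2 alone was called. All 21 lymphocyte and granulocyte markers were under 16 on all arrays, none was called, and none had an unadjusted p under 0.05.

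Some markers of other neurons were lower in tumor samples. Of GABAergic interneuron markers 25.0% and of Purkinje cell markers 15.4% were called, against 5.62% of all genes. The median difference over all members was 0.0043 for GABAergic interneuron markers and -0.065 for Purkinje cell markers. In each list 2 members lay outside the low band, with medians of -1.95 and 0.019. Gad1, the GABA-synthesising enzyme of interneurons (103061_at), read 5.75, 5.66, 7.11 and 6.95 in GCP and 2.51, 2.93, 1.81, 1.70 and 1.58 in tumor. It fell at least 5.16-fold (adjusted p = 0.000281), and no tumor array left the low band. Tfap2b and Slc32a1, of the same 12-member list, fell within the low band, and Gad2, Pax2 and Npy were under 16 on all arrays; summed intensity was 121 to 210 in GCP and 68.4 to 130 in tumor. Eomes (Tbr2), a factor of unipolar brush cells (103532_at), fell at least 2.62-fold, from 5.39 ± 0.68 to the floor (adjusted p = 7.9e-05). Of 13 Purkinje cell markers 2 fell, Stmn3 by 0.50 (adjusted p = 0.029) and Lhx5 within the low band (adjusted p = 6.16e-05), and Pcp2, a defining marker, was under 16 on all arrays. The Stmn3 call ended without GCP 3, GCP 4 or tumor 1 (adjusted p = 0.0509 to 0.103) and with the GCP pairs averaged (adjusted p = 0.182); Gad1, Tfap2b, Slc32a1, Lhx5 and Eomes kept theirs.

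Of 11 red blood cell genes 2 fell (18.2%, against 3.93% of all genes lower), and their tumor levels were uneven. Hbb-b2, a beta globin (103534_at), read 9.67, 10.72, 11.28 and 11.07 in GCP. It read 7.55, 7.03, 2.55, 1.39 and 6.30 in tumor. Tumor 3 and tumor 4 lay in the low band and the other tumor arrays did not, and the fall was 52.7-fold (adjusted p = 0.0157). Hba-a1, an alpha globin, showed the same 2 arrays in the low band and fell 28.5-fold (adjusted p = 0.0182). The other 9 members of the list were under 16 on all arrays. The Hbb-b2 call ended without GCP 3 or GCP 4 (adjusted p = 0.0516 to 0.0521), that of Hba-a1 without GCP 2 or GCP 3 (adjusted p = 0.0559 to 0.058), so that without GCP 3 no member was called, and both with the GCP pairs averaged (adjusted p = 0.15 and 0.165).

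A pair of keratins rose strongly (7.69% of the list, against 1.7% of all genes higher), while the rest of the epithelial list was dim. Krt10, a keratin of upper epidermis (94321_at), read 7.57, 7.59, 7.85 and 7.55 in GCP and 10.91, 11.46, 11.46, 11.01 and 10.44 in tumor. The gap between the groups exceeded 2 log2 units, and the rise was 10.7-fold (difference 3.41 ± 0.22, adjusted p = 7.94e-06). Krt12, a keratin of corneal epithelium (97788_at), read 2.84, 3.69, 2.67 and 3.35 in GCP and 7.19, 8.63, 8.79, 8.50 and 7.86 in tumor, a rise of at least 18.3-fold (adjusted p = 7.94e-06). The other 24 of the 26 measured members, Krt5, Krt8, Krt14, Krt18, Cdh1 and Epcam among them, were under 16 on all arrays. The pretumor means lay between those of GCP and tumor, at 9.71 ± 0.36 for Krt10 and 7.46 ± 0.34 for Krt12. Both calls held without any 1 array and with the GCP pairs averaged.

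Several other changes fell outside these groups. Mtx2, a protein import factor of the outer mitochondrial membrane (160076_at), read 8.29, 8.24, 8.55 and 8.48 in GCP and 3.33, 2.83, 4.82, 2.21 and 4.37 in tumor, a fall of at least 21-fold (adjusted p = 0.000319). Calml4, a calmodulin-like protein, fell at least 8.01-fold from 7.00 ± 1.12 to 3.38 ± 0.56 (adjusted p = 0.00259). Smpdl3a, a phosphodiesterase, fell 9.48-fold from 7.46 ± 0.29 to 4.21 ± 1.20 with tumor 4 and tumor 5 in the low band (adjusted p = 0.00263). Among the rises, Noct, a clock-controlled nuclease (101787_f_at), read 10.16, 10.08, 10.77 and 10.74 in GCP and 12.13, 13.65, 12.37, 12.56 and 12.28 in tumor. Tumor 2 was highest, and the rise was 4.48-fold (adjusted p = 0.0038). Gdpd3, a lysophospholipase, went from 2.67 ± 0.40 to 7.24 ± 1.47 (adjusted p = 0.000909), and Rbp4, a retinol carrier, from 2.74 ± 0.94 to 4.80 ± 0.29, a rise of at least 1.74-fold (adjusted p = 0.00763). Ero1b, an endoplasmic reticulum oxidase, was the called gene among 33 of the ER stress list (3.03%, against 1.7% of all genes higher). It was highest in tumor 2 at 9.31 and tumor 3 at 9.86, against 5.55 to 6.64 in the others (adjusted p = 0.0297). Of 18 circadian clock genes 2 rose (11.1%, against 1.7% of all genes higher), Nr1d2 and Clock (adjusted p = 0.0102 and 0.0333). The Ero1b call ended without any 1 GCP array or tumor 2 (adjusted p = 0.0565 to 0.0846) and that of Clock without GCP 1, 2 or 3 or tumor 1, 2 or 3 (adjusted p = 0.0524 to 0.109). When GCP pairs were averaged, the calls of Noct, Ero1b, Nr1d2 and Clock ended (adjusted p = 0.0528 to 0.22), and those of Mtx2, Calml4, Smpdl3a, Gdpd3 and Rbp4 held; with a floor at 16 those of Rbp4 and Nr1d2 ended (adjusted p = 0.0793 and 0.227).

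The remaining lists held few calls, 7.14% of metallothionein and oxidative stress genes and 3.45% of apoptosis regulators, against 5.62% of all genes. Of 28 metallothionein and oxidative stress genes Gstp1 rose by 0.36 (adjusted p = 0.0297) and Gsta4 fell within the low band (adjusted p = 0.0103), and of 29 apoptosis regulators Casp8 fell within the low band (adjusted p = 0.0117). Among the brightest called genes, Map4k4, a kinase upstream of JNK, rose 1.71-fold (adjusted p = 0.0347) and the predicted gene Gm15772 1.15-fold (adjusted p = 0.0451), while Rtn1, a reticulon of neurons, and Tubb5, a beta tubulin of dividing cells, fell 1.52-fold and 1.24-fold (adjusted p = 0.0419 and 0.042). These are small steps. The calls of Gstp1 (without any 1 GCP array or tumor 2), Map4k4 (without GCP 1, 2 or 3 or tumor 1 or 4), Gm15772 and Rtn1 (without any 1 GCP array or tumor 1, 2, 4 or 5) and Tubb5 (without GCP 1, 3 or 4 or tumor 1, 2 or 5) ended (adjusted p = 0.0515 to 0.141). After the GCP pairs were averaged, all of the calls in this group of genes ended (adjusted p = 0.0766 to 0.269).

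Some called genes crossed the limit of the low band between the groups. Of the 324 genes called lower, 22 lay above the low band on all GCP arrays and within it on all tumor arrays. Of the 140 called higher, 10 showed the reverse. The 22 included Gad1, Eomes, Unc5c, Cldn5, Vegfc, Nid2, Col3a1, Gabrb1 and Kcnd2. The 10 were Fosb, Gdpd3, Rgs16, Tiparp, Mafg, Pik3r1, Krt12, Nr1d2, Foxf2 and Il17ra. Some crossed it by a small step: the difference was -0.63 for Spock2, -0.75 for B9d1, -0.77 for Thra, -0.79 for Gipc1 and 0.79 for Mafg.

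Tumor arrays varied more among themselves than GCP arrays. Over the 2900 genes above the low band in both groups the median SD was 0.194 in GCP and 0.294 in tumor, and the SD was larger in tumor for 74.5% of them. An SD over 1 was found in 81 genes in tumor and 6 in GCP. The groups differ in size and the GCP arrays form pairs, and the part of either in this was not tested.

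The 10 genes with the largest tumor SD included several that no average describes. Ccn2, a secreted matrix protein induced by stretch and TGF-beta (93294_at), read 1.65, 1.87, 1.89 and 1.91 in GCP. It read 1.88, 6.18, 9.99, 2.00 and 3.67 in tumor. Tumor 3 and tumor 2 stood high and tumor 1 and tumor 4 at the GCP level, and no call was made (adjusted p = 0.324). Lcn2, an iron-binding protein of inflammation, was high in tumor 1, 2 and 4, at 6.14, 8.27 and 5.98, and near the floor in tumor 3, tumor 5 and all GCP arrays (adjusted p = 0.179, and 0.0421 without tumor 3). Matn2, a matrix protein, was high in tumor 3 and tumor 2 only, at 8.41 and 5.14 (adjusted p = 0.777). Mab21l2, a developmental regulator, ran from 3.80 in tumor 3 to 10.33 in tumor 2, around GCP levels of 6.33 ± 0.20 (adjusted p = 0.599).

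Ttr, transthyretin, made in bulk by the choroid plexus (95350_at), read 9.25, 11.09, 11.64 and 11.12 in GCP and 10.14, 9.63, 8.50, 3.92 and 2.88 in tumor. Tumor 4 and tumor 5 lay in the low band, tumor 1 and tumor 2 lay above GCP 1, and Ttr was not called (adjusted p = 0.186); the pretumor mean was 12.92 ± 0.63. The summed intensity of the 9 choroid plexus and ependyma genes ran from 637 to 3225 in GCP, 5162 to 14560 in pretumor and 32.2 to 1168 in tumor. Aqp1, Cldn1 and Foxj1 of that list were under 16 on all arrays. Usp22 and Mtm1 also varied widely, but in GCP as well as in tumor, with SDs of 2.12 and 1.14 in GCP and 2.55 and 2.85 in tumor.

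**Figure D5:**
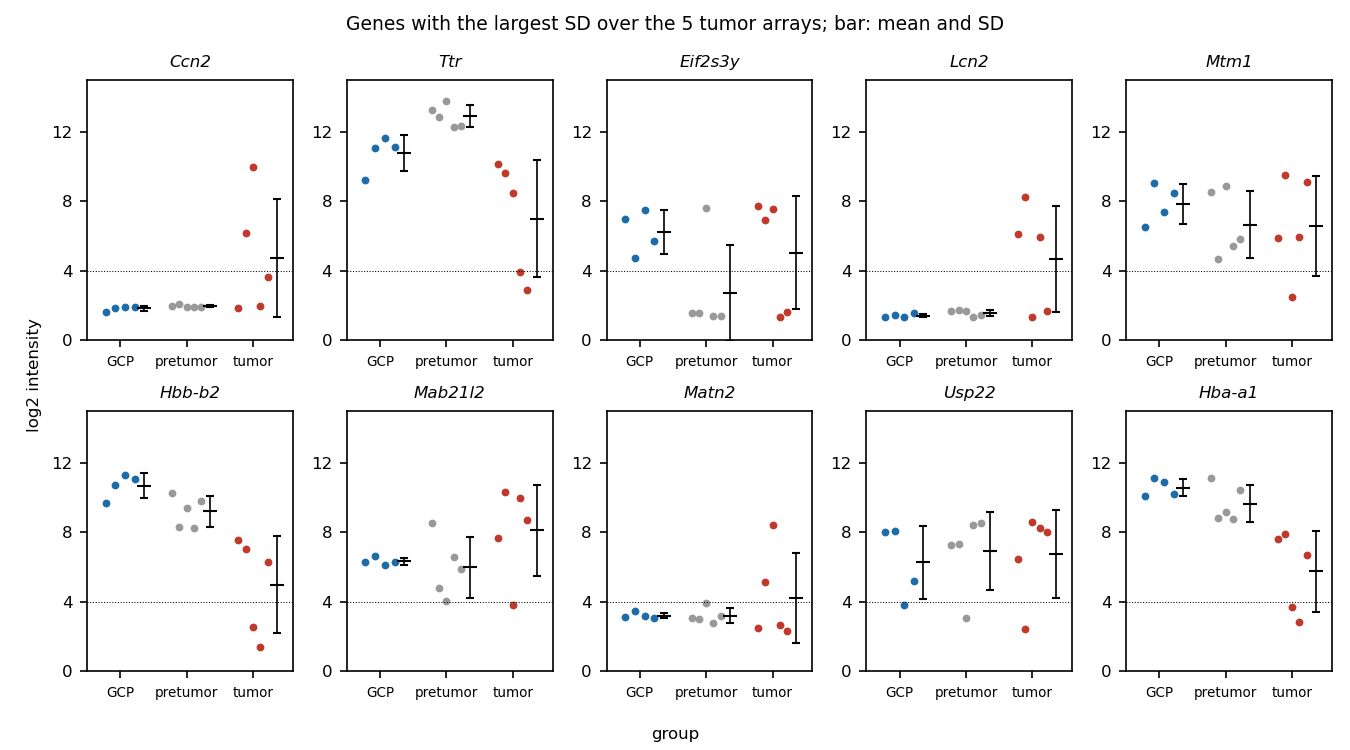
Level (log2 intensity, vertical axis) of the 10 genes with the largest SD over the 5 tumor arrays, on each array of GCP (blue, n = 4), pretumor (grey, n = 5) and tumor (red, n = 5); the black bar is the group mean with its SD and the dotted line the limit of the low band (an SD bar of Eif2s3y is cut at 0). Different tumor arrays stand out for different genes: tumor 3 for Ccn2 and Matn2, tumor 2 for Lcn2, tumor 4 and 5 for low Ttr and Eif2s3y.

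Eif2s3y, a gene of the Y chromosome (103674_f_at), read 7.00, 4.75, 7.51 and 5.70 in GCP and 7.72, 6.95, 7.55, 1.33 and 1.63 in tumor. Tumor 4 and tumor 5 were near the floor and all other arrays of both groups above the low band. The probe sets of Xist, Kdm5d, Uty and Sry lay in the low band on all of these arrays, so no second gene checks this pattern. The labels give no sex. Tumor 4 and tumor 5 were also the most alike of the tumor arrays and the lowest for Ttr, and the part of sex in the comparison was not tested.

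Levels at the preneoplastic stage are set beside those of tumor for some of these genes; both contrasts with tumor use the same tumor arrays, so no overlap of calls is drawn. For Kcnd2, Nid2, Unc5c, Fabp7 and Nsdhl the pretumor means were 1.76 ± 0.54, 1.59 ± 0.31, 2.46 ± 0.16, 9.78 ± 0.40 and 6.67 ± 0.30, next to tumor means of 1.30 ± 0.00, 1.34 ± 0.09, 2.32 ± 0.24, 9.40 ± 0.85 and 6.66 ± 0.28. The tumor minus pretumor differences were -0.47, -0.25, -0.14, -0.38 and -0.01, and limma called none of them (adjusted p = 0.669, 0.521, 0.758, 0.751 and 1). Other genes differed from both earlier stages. Calml4, whose pretumor mean was 8.62 ± 0.84, was lower in tumor by 5.24 (adjusted p = 0.000523). Krt10 was 1.34 and Myc 1.78 higher in tumor than in pretumor samples (adjusted p = 0.00974 and 0.0129). Ptprz1 was lower by 4.03, Mtx2 by 2.95, Sox2 by 2.06 and Mbp by 1.64 (adjusted p = 0.00106, 0.0203, 0.0453 and 0.00453). Slc8a1 was 1.07 higher in tumor than in pretumor samples (adjusted p = 0.000282) although it was lower than in GCP.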

How the data were processed

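The deposited series matrix holds 1 linear intensity per probe set and array for 12488 probe sets and 14 arrays. The summarisation and scaling behind the deposited intensities remain not given in the sources used here, and 66 control probe sets were left out. Array medians differed by at most 0.094 log2 units, under the limit of 0.2, so values were used as deposited, floored at the 10th percentile (2.46) and taken to log2; 404 probe sets sat at the floor on all arrays. limma 3.58.1 in R 4.3.3 fitted 3 group means to all 14 arrays (11 residual degrees of freedom), with two-sided p-values adjusted by Benjamini-Hochberg over 12422 probe sets, and was tested on simulated data. Symbols came from the array's annotation (10833 probe sets with 1 symbol, 396 with several, 1193 with none; 10821 symbols matched GRCm38.p6), and each of 8251 genes took its brightest probe set. Promoter windows are RefSeq's.

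Named genes followed a rule: the 14 largest rises and falls among called genes that did not overlap and reached 16, the 6 brightest calls in each direction, up to 4 called members per list (or the brightest), Ptch1, the 10 largest tumor SDs, and the sex-linked genes. The 43 gene lists, the limit of 16 and this rule were chosen with earlier results of these data known. For arrays there is no read depth; their number limits the precision. Alternatives were the groups fitted alone, replicate numbers as a block, other floors, normalisations, filters and variance settings, array weights, averaged GCP pairs and leaving out each array.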

Additional observations from a re-analysis of the deposited data

Results flagged for a closer look

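Among 261 groups of values of named genes, 26 held an array far from the others of its group, where chance flags about 1 in 20. The value given is the level of that array. Tumor 2 was such an array 7 times, GCP 1 5 times, tumor 1 and tumor 3 4 times each, and tumor 4 never.

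Tumor 2 was far above the other tumor arrays for Noct (13.65), and just above arrays at the floor for Nid2 (1.51), Eomes (1.35) and Kdm5d (1.46). It was far below them for Neurod1 (10.78), Stmn2 (9.26) and Slc16a1 (1.96).

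Tumor 1 was highest for Pax6 (8.90) and lowest for Cdc6 (7.61), Sdhc (7.85) and Tfap2b (1.75). Tumor 3 was highest for Plagl1 (2.05), Tie1 (1.66) and Col3a1 (3.98) and lowest for Stmn3 (10.20). Tumor 5 was lowest for Mbp (4.87).

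GCP 1 was far below the other GCP arrays for Igfbp2 (5.91), Kitl (5.49), Vamp2 (8.81) and Ccn2 (1.65), and above them for Homer2 (4.78). GCP 3 was highest for Krt10 (7.85) and Gadd45b (6.19) and lowest for Dnajb2 (4.28). GCP 2 was highest for Hmgcs1 (11.01) and GCP 4 for Smc2 (9.37).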

How the results depend on the processing

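Called probe sets numbered 571 (175 higher, 396 lower) and moved by over 1.5 times under these alternatives: GCP and tumor fitted alone 335 (95 higher, 240 lower), a floor at 16 232 (76 higher, 156 lower), GCP pairs averaged 198 (40 higher, 158 lower) and array weights 997 (403 higher). Leaving out 1 array gave 338 to 712 in all, 93 to 247 higher and 245 to 465 lower. GCP and tumor share replicate numbers, but same-numbered samples did not deviate together (correlations -0.25, -0.31, -0.041 and -0.29). Differently numbered GCP and tumor pairs ran from -0.49 to 0.45. The numbers thus showed no pairing, and other structure shared across the groups was not tested. With the replicate block 436 were called, and 4 (1 higher, 3 lower) with the replicate block and the 2 groups alone. Of 113 named calls none changed direction under the 20 alternatives. Those that ended were 111 under the block with the groups alone, 63 with GCP pairs averaged, 43 with the groups alone, 37 with the floor at 16, 27 with the block, 10 or fewer under each other scaling, filter or variance setting, and 44 without at least 1 array. With the floor at 16, 22 named genes had no value because both groups sat at the floor. Krt10 and Nid2 held in every fit. Kitl was called without tumor 5 and Lcn2 without tumor 3, and Ttr with array weights (adjusted p = 0.0166). Signals in the low band, 70.5% of values, limit what can be seen for dim genes, Atoh1 and Gli1 included.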
